A study of Mus musculus with 4 samples.

Results

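The transcripts of the cellular oxygen sensor were followed in differentiating mouse erythroid cultures. They are the hypoxia-inducible factor (HIF) subunits Hif1a, Epas1 and Arnt, the prolyl hydroxylases Egln1, Egln2 and Egln3, the asparaginyl hydroxylase Hif1an, the ubiquitin ligase subunit Vhl, and the HIF target genes Vegfa and Ankrd37. The genes were chosen by name, and a feature of the array counted when its annotation gave that gene alone. All 10 genes were measured, each by 1 feature, among 19938 genes with a feature of their own.

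The 2 groups of 2 cultures, lettered A and B, were compared on the Affymetrix GeneChip Mouse Gene 1.0 ST, with 1 array per culture. MEL cells, an established erythroleukemia line, were grown in DMEM with serum, L-glutamine and puromycin and were differentiated for 48 hours with estradiol. ES-EP cells, a line of erythroid progenitors made from embryonic stem (ES) cells, were expanded in StemPro34 with erythropoietin, insulin-like growth factor, dexamethasone, stem cell factor and mercaptoethanol. They were differentiated for 24 hours in StemPro34 with more erythropoietin, insulin, the glucocorticoid antagonist mifepristone and mercaptoethanol. The labels name no genotype, clone or transgene and do not say what makes the MEL cells respond to estradiol or resist puromycin. They give no oxygen level, cell density or medium change on the day of harvest. The groups differ at once in line, inducing agent, culture medium and time, and the parts of these in any difference cannot be told apart.

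HIF is a pair of an oxygen-regulated alpha subunit, encoded by Hif1a or Epas1, and the constant partner encoded by Arnt. In the presence of oxygen the EGLN enzymes hydroxylate prolines of the alpha subunit, the VHL protein recognises the hydroxylated form, and the subunit is destroyed by the proteasome. The HIF1AN enzyme hydroxylates an asparagine that the transcriptional coactivators need, and so blunts whatever alpha subunit is left. In low oxygen these enzymes slow down, HIF binds a short DNA motif at its target genes, and among those targets are genes of the EGLN enzymes themselves. In red cell biology the pathway is best known for setting erythropoietin output, and HIF alpha is regulated chiefly as protein, which an RNA array does not measure.

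The core of the motif that HIF binds is ACGTG or GCGTG, and both were searched on both strands of the 250 bases before each annotated start site. RefSeq sequences of the mouse build GRCm38.p6 were at hand for 9 of the 10 genes, in 11 windows, with none for Epas1. Sequences are shown for Egln1, Egln3 and Ankrd37, which are known hypoxia-induced genes and whose transcripts went different ways in these cultures. They are written 5′ to 3′ on the strand of the gene, with the motif on either strand in capitals. The Egln1 window lies at chr8:124949255-124949504 on the minus strand, and the Egln3 window at chr12:54203875-54204124 on the minus strand. The annotated span of Ankrd37 reaches into its window, and the bases given may lie within that span. Only the last 30 bases of the window are given, at chr8:45999851-45999880 on the minus strand.
Egln1: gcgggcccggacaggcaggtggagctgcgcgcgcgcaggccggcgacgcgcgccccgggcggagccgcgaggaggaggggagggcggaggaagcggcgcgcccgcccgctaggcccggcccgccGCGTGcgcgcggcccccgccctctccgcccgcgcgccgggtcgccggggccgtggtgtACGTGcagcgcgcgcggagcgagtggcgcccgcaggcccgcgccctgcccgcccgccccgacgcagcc
Egln3: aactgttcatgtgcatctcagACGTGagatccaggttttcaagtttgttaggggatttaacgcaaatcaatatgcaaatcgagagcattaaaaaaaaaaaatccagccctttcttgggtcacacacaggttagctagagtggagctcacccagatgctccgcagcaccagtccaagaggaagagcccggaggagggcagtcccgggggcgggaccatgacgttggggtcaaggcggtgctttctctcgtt
Ankrd37: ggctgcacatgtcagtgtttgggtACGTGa

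Egln1 held 1 ACGTG, starting 68 bases before the start site, and 1 GCGTG, starting 126 bases before it. Egln3 held 1 ACGTG, 229 bases before the start site. The whole Ankrd37 window held 2 of each form, and its nearest ACGTG began 6 bases before the start site. Of the 9 genes 7 held either form in at least 1 window, and Vhl and Hif1an held neither. Vegfa held them in only 1 of its windows, which its annotated span touches. By window, 8 of the 11 held either form. The palindrome CACGTG in the Hif1a window counted once on each strand. Either form occurred in 46.2% of the 19177 windows that belong to genes measured here, so a match is a description of the window and not a binding site.

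Most of the 10 genes differed between the culture systems, both target genes included, and mostly upward in MEL. A total of 7 members were called higher in MEL, namely Arnt, Egln1, Egln2, Hif1an, Vhl, Vegfa and Ankrd37, and Epas1 and Egln3 were called lower. Hif1a was not called. A call here is an adjusted p under 0.05 in limma, with Benjamini-Hochberg adjustment over all 28944 features tested. Calls were common in this comparison, and the background was 58.6% of genes, with 21.8% higher and 36.9% lower, against 7 and 2 of 10 members. The split of all calls depended on scaling, with 26.7% of genes higher and 28.6% lower after quantile normalization and 29.0% and 24.5% after cyclic loess. At 2-fold or more the background was 12.3% of genes, 7.38% higher and 4.93% lower, and 4 members passed, of which 3 were higher and 1 lower. The median difference of the members was 0.59 on the log2 scale, against -0.14 for all genes. The 2 groups did not overlap in any of the 10 members, nor in 80.2% of all genes.

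**Figure D1:**
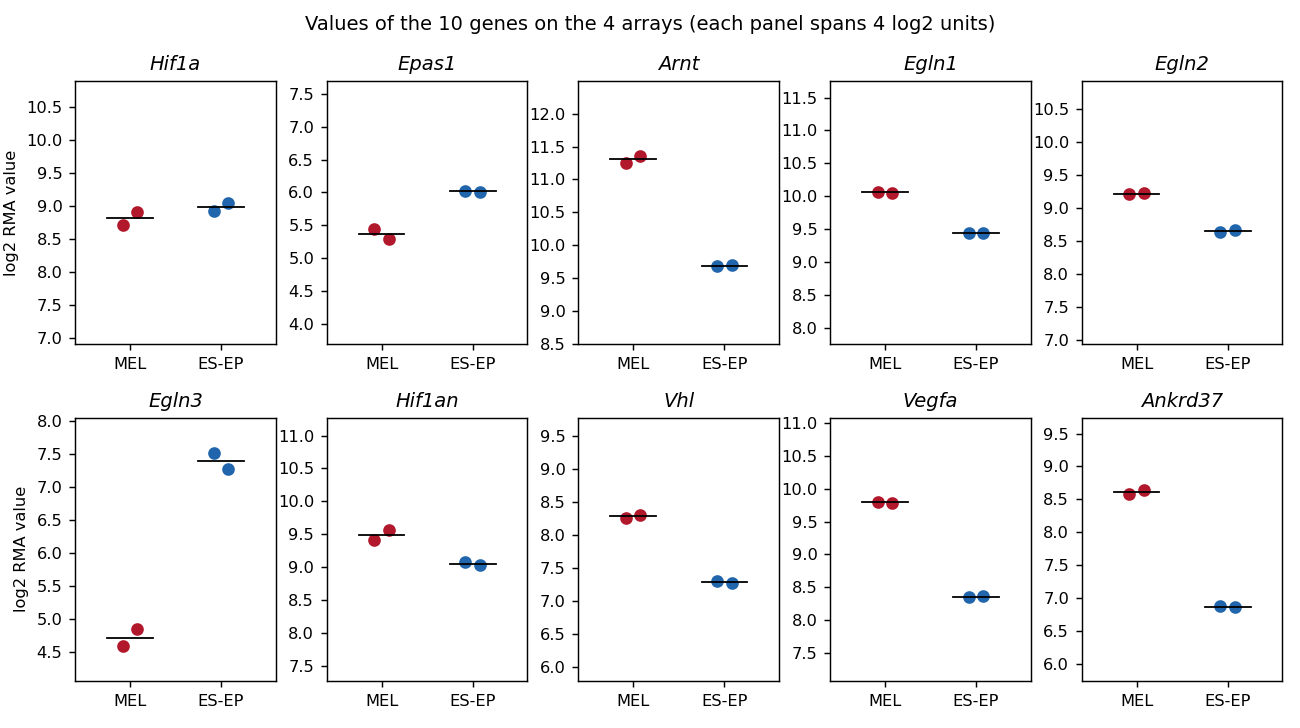
Log2 RMA values of the 10 genes, a panel each, with MEL arrays in red at the left and ES-EP arrays in blue at the right. Points are single cultures, lines are means of 2, and every panel spans 4 log2 units, so Egln3 shows the widest separation and Hif1a the narrowest.

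The HIF subunits did not move together. Hif1a, the widely expressed alpha subunit, had log2 values of 8.72 and 8.91 in MEL against 8.93 and 9.04 in ES-EP cells. The MEL values lay just under the ES-EP values, and the space between the groups was smaller than the distance between duplicates. The difference of MEL minus ES-EP was -0.17 ± 0.10 (SE, n = 2 per group), with a 95% interval of -0.41 to 0.06 (limma, adjusted p = 0.178). That lies close to the median difference of all genes, and 72.1% of genes were at least as far apart.

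Epas1 encodes HIF-2 alpha, the subunit best known from endothelium and from the cells that make erythropoietin. It had values of 5.45 and 5.29 in MEL against 6.03 and 6.01 in ES-EP cells. Both MEL cultures were lower, by -0.65 ± 0.09 (SE, n = 2 per group, limma adjusted p = 0.000833), a 1.57-fold difference. The feature was dim, with 42.7% of all features below it in MEL and 52.1% in ES-EP cells. The deposited table has no detection calls, so whether Epas1 was expressed in MEL cells cannot be told from these values.

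Arnt, the partner of both alpha subunits and also of the aryl hydrocarbon receptor, was far higher in MEL. Its values were 11.26 and 11.36 in MEL against 9.68 and 9.69 in ES-EP cells, so the groups stood well apart. The difference was 1.62 ± 0.08 (SE, n = 2 per group), or 3.07-fold with a 95% interval of 2.68 to 3.53 (limma, adjusted p = 5.69e-06). Only 5.18% of genes differed by as much in either direction.

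The 3 prolyl hydroxylase genes split, and this was the widest contrast among the members. Egln1 encodes the enzyme PHD2, the main brake on HIF in most tissues, and had values of 10.07 and 10.05 in MEL against 9.44 and 9.44 in ES-EP cells. Egln2, whose product PHD1 is not known as a strongly hypoxia-induced enzyme, had 9.21 and 9.23 in MEL against 8.63 and 8.66 in ES-EP cells. In both genes the duplicates were nearly identical and MEL was higher, by 0.62 ± 0.08 for Egln1 and 0.57 ± 0.08 for Egln2 (SE, n = 2 per group). The folds were 1.53 and 1.49 (limma, adjusted p = 0.000557 and 0.000827).

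Egln3 encodes PHD3, the hydroxylase whose gene is most strongly induced by low oxygen in many cell types. It went the other way, with values of 4.58 and 4.84 in MEL against 7.52 and 7.28 in ES-EP cells. The duplicates were 0.26 log2 units apart in MEL and 0.24 in ES-EP cells, far less than the distance between the groups. The difference was -2.69 ± 0.12 (SE, n = 2 per group), 6.46-fold lower in MEL with a 95% interval of 5.29 to 7.90 (limma, adjusted p = 3.02e-06). In size it ranked 332 of 19938 genes. In MEL 30.6% of all features were dimmer than Egln3, and array values flatten near their floor, so the fold may understate the difference. The 95% intervals of the 3 hydroxylases were 0.43 to 0.81 for Egln1, 0.38 to 0.76 for Egln2 and -2.98 to -2.40 for Egln3, and that of Egln3 did not meet the other ones.

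The genes whose 4 values ran most like those of Egln3 were Rgs18, Zfp277 and 1700001L05Rik. Each gene was centred on its own mean and the Euclidean distances over the 4 arrays were 0.15, 0.18 and 0.20 log2 units. Their differences were -2.63, -2.68 and -2.56, and with 4 arrays in 2 groups such likeness mostly reflects a difference of the same size.

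Hif1an, also called FIH, gave a small difference. Its values were 9.41 and 9.57 in MEL against 9.08 and 9.03 in ES-EP cells, with both MEL cultures higher and somewhat apart from each other. The difference was 0.44 ± 0.09 (SE, n = 2 per group), or 1.35-fold (limma, adjusted p = 0.00533), and 38.8% of genes were at least as far apart.

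Vhl, the recognition subunit that binds hydroxylated HIF alpha, was higher in MEL by almost exactly 2-fold. It had 8.27 and 8.30 in MEL against 7.30 and 7.27 in ES-EP cells, and the duplicates lay close together in both groups. The difference was 1.00 ± 0.08 (SE, n = 2 per group) with a 95% interval of 0.81 to 1.19 (limma, adjusted p = 5.02e-05). Its fold of 1.998 fell just short of the 2-fold criterion, and it was the member nearest to that line. Vegfa, at 2.70-fold, was the nearest member past it.

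Both target genes were higher in MEL. Vegfa, the angiogenic growth factor and a classic HIF target, had 9.80 and 9.79 in MEL against 8.36 and 8.36 in ES-EP cells. The duplicates hardly differed, and the difference was 1.44 ± 0.08 (SE, n = 2 per group), 2.70-fold with a 95% interval of 2.37 to 3.08 (limma, adjusted p = 8.1e-06). Ankrd37, an ankyrin repeat gene known as a hypoxia-induced transcript, had 8.58 and 8.64 in MEL against 6.88 and 6.86 in ES-EP cells. Its difference of 1.74 ± 0.08 (SE, n = 2 per group) was the largest rise among the members, 3.34-fold with a 95% interval of 2.93 to 3.81 (limma, adjusted p = 3.35e-06). Ufsp2, a protease gene whose annotated span overlaps that of Ankrd37, differed by -0.08 (limma, adjusted p = 0.486).

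**Figure D2:**
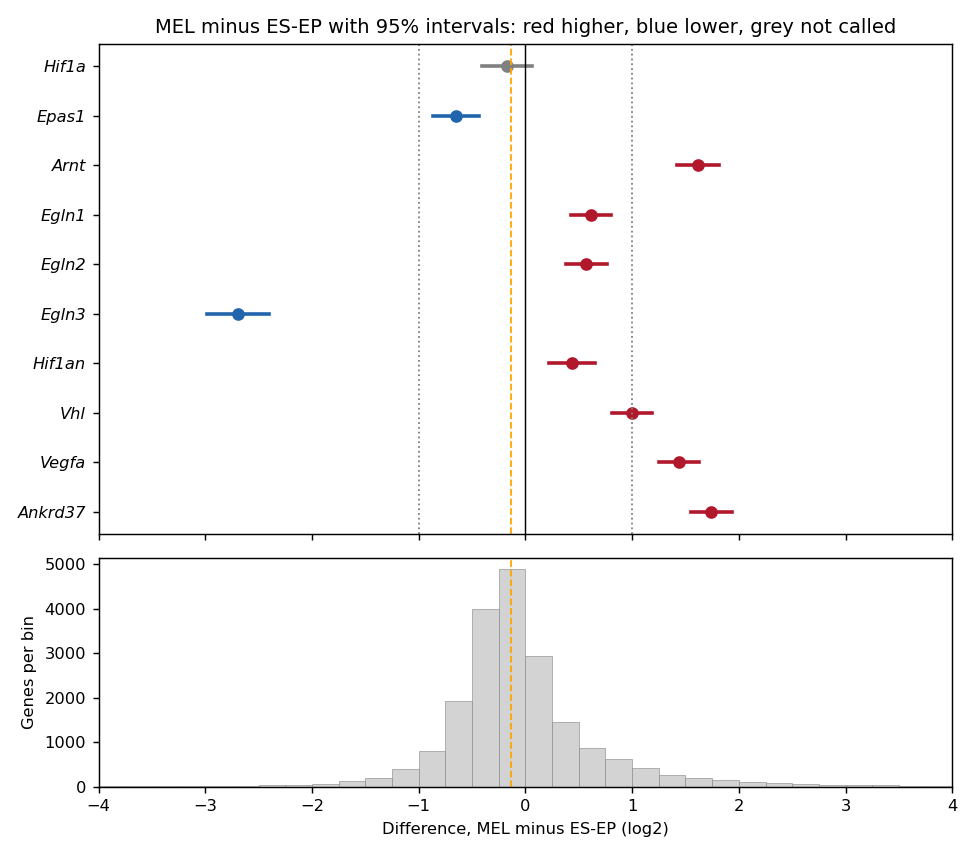
Upper panel, differences of MEL minus ES-EP on the log2 scale with 95% intervals from limma, with 2-fold lines dotted and the median of all genes, -0.14, dashed. The lower panel counts all 19938 genes by difference on the same axis, and Egln3, Arnt, Vegfa and Ankrd37 lie in its thin tails while Hif1a lies near its peak.

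In order of difference, the members ran from Ankrd37 through Arnt, Vegfa, Vhl, Egln1, Egln2, Hif1an, Hif1a and Epas1 to Egln3. The 95% intervals of Ankrd37, Arnt and Vegfa met one another, as did those of Egln1, Egln2 and Hif1an, so the order within each of these trios is not settled. An exact permutation test of 2 arrays against 2 cannot give a two-sided p below 0.333, and each member gave that value. The calls therefore rest on the spread that limma shares over all features.

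The members kept their direction when the processing was changed. Relative to the median of all genes the differences ran from -2.55 for Egln3 to 1.88 for Ankrd37, and that of Hif1a was -0.03. At an adjusted p under 0.05 the 7 higher members and Egln3 passed in the 14 other fits, Epas1 passed in the 13 that kept its dim feature, and Hif1a passed in none. With a criterion of at least 1.5-fold added, 5 members were higher and 2 lower, because Egln2 and Hif1an fell short of it. The share of all genes passing at 1.5-fold was not computed, so these counts have no background beside them. Leaving out 1 array gave differences of -0.27 to -0.07 for Hif1a, with adjusted p from 0.0613 to 0.5402 in limma.

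**Figure D3:**
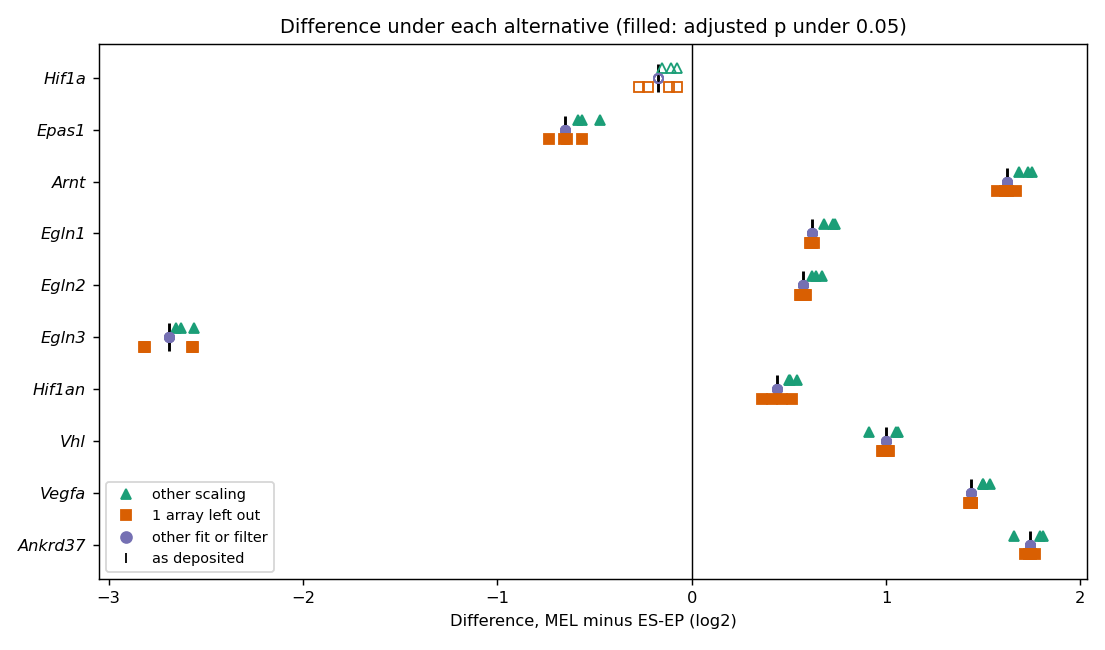
Difference of MEL minus ES-EP on the log2 scale for each gene as deposited (black tick), under other scalings (triangles), with 1 array left out (squares) and under other fits or filters (circles). Filled symbols passed an adjusted p of 0.05, and no symbol lies across the zero line from its black tick.

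The other parts of the HIF machinery showed no common direction. Of 24 measured genes of 26 listed, 6 were higher and 11 lower in MEL (limma), with a median difference of -0.08 that became 0.03 after cyclic loess. The shares over all genes were 21.8% higher and 36.9% lower. The median of all genes was -0.14, and it became 0.02 after cyclic loess. Hif3a, a further alpha subunit with forms that restrain HIF, was 3.89-fold lower in MEL, at a mean of 6.23 against 8.19 in ES-EP cells. Cited4, which competes for the coactivators that HIF needs, was 2.02-fold lower. The ubiquitin ligase genes Siah1a and Siah1b, whose products act on the EGLN enzymes, differed by -1.26 and 1.12, but the genes are near-identical copies and features could be shared in part. Limd1, a scaffold that brings EGLN enzymes and VHL together, and the deubiquitinase gene Usp20 were 1.42-fold and 1.39-fold higher. In the ligase that VHL belongs to, the scaffold gene Cul2 gave a difference of 0.04 (limma, adjusted p = 0.722) and Rbx1 one of 0.19 (adjusted p = 0.138). Eloc gave -0.83 (limma, adjusted p = 0.000151) and Elob 0.35 (adjusted p = 0.00838), in opposite directions. A dimmer feature of Elob gave 0.69 (limma, adjusted p = 0.000361). All of these ligase genes were named after their values were seen.

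Hypoxia-responsive genes were mostly higher in MEL, as Vegfa and Ankrd37 were and Egln3 was not. Of 44 measured genes outside glycolysis, 26 were higher and 8 lower, and at 2-fold or more 20 were higher and 2 lower. The median difference was 0.83. Among all genes 21.8% were higher and 36.9% lower, and 7.38% and 4.93% at 2-fold or more. Cxcr4, a chemokine receptor gene, was 10.9-fold higher, the mitophagy gene Bnip3 6.48-fold and P4ha2, a collagen prolyl hydroxylase, 5.92-fold. In ES-EP cells 37.4% of features were dimmer than Cxcr4 and its duplicates were 0.45 log2 units apart, so its fold has the limit given for Egln3. Plod2, which hydroxylates collagen lysines, was 8.88-fold lower, with 3.43 in MEL against 6.58 in ES-EP cells, and so shared the direction of Egln3. In MEL 6.83% of features were dimmer than Plod2, near the array's floor, so the size of its fold is uncertain. Hmox1, which degrades heme, was 3.42-fold lower, and the transferrin receptor gene Tfrc, also an iron-regulated gene, was 1.75-fold lower. The count of lower genes fell to 5 after quantile normalization and 4 after cyclic loess, and to 4 without ES-EP culture A and 5 without ES-EP culture B or MEL culture B.

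Of 16 measured genes of glucose uptake and glycolysis, 14 were higher and 0 lower (limma), against 21.8% and 36.9% of all genes. The median of the list was 1.20, and Eno2, Hk2 and Pfkl led with 7.72, 6.84 and 5.50-fold. In ES-EP cells 36.6% of features were dimmer than Eno2, so its fold has the limit given for Egln3. Higher glycolytic genes in MEL were already known from these arrays when the genes were chosen, so this count is no independent evidence. The list of hypoxia-responsive genes outside glycolysis was also chosen with earlier results of these data known.

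A list of other enzymes of the same chemistry as the EGLN family, the 2-oxoglutarate dioxygenases, was split. It left out enzymes of this class that were counted among the hypoxia-responsive genes. Of those, Kdm3a, Kdm4b, P4ha1, P4ha2 and Plod1 were higher in MEL by 2-fold or more, Plod2 was lower and Kdm4c was not called (limma). Of the 38 measured genes on the list itself, 15 were higher and 13 lower in MEL, or 39.5% and 34.2%, against 21.8% and 36.9% of all genes. The median of the list was -0.02, and it was positive under the 3 other scalings, up to 0.06. Alkbh6, Alkbh2 and Alkbh5, all AlkB homologues, were 3.43, 2.28 and 2.23-fold higher. Alkbh3, a repair enzyme for methylated nucleic acid, was 17.3-fold lower, Phyh, of peroxisomal phytanic acid breakdown, 3.28-fold, and Riox2, a ribosomal oxygenase, 3.02-fold. In MEL 32.2% of features were dimmer than Alkbh3 and 28.2% dimmer than Phyh, so both folds have the limit given for Egln3. At 2-fold or more there were 6 higher and 4 lower, against 7.38% and 4.93% of all genes. After quantile normalization there were 3 and 3, against 7.62% and 4.54%.

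Other genes of the VEGF family, the ligands and receptors around Vegfa, differed little. Of 9 measured 3 were higher and 2 lower, and 0 differed by 2-fold or more (limma). Among all genes 21.8% were higher, 36.9% lower and 12.3% called at 2-fold or more. Vegfb, a relative of Vegfa, was 1.74-fold higher, at 8.70 in MEL against 7.90 in ES-EP cells. Flt4 and Vegfd were 1.52 and 1.31-fold higher, and Nrp2 and Vegfc 1.35 and 1.31-fold lower, with group means of 4.50 to 5.61. The 2 lower calls were lost after quantile normalization and after cyclic loess, where 4 were higher, and lower genes numbered 1 without MEL culture B, ES-EP culture A or ES-EP culture B.

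**Figure D4:**
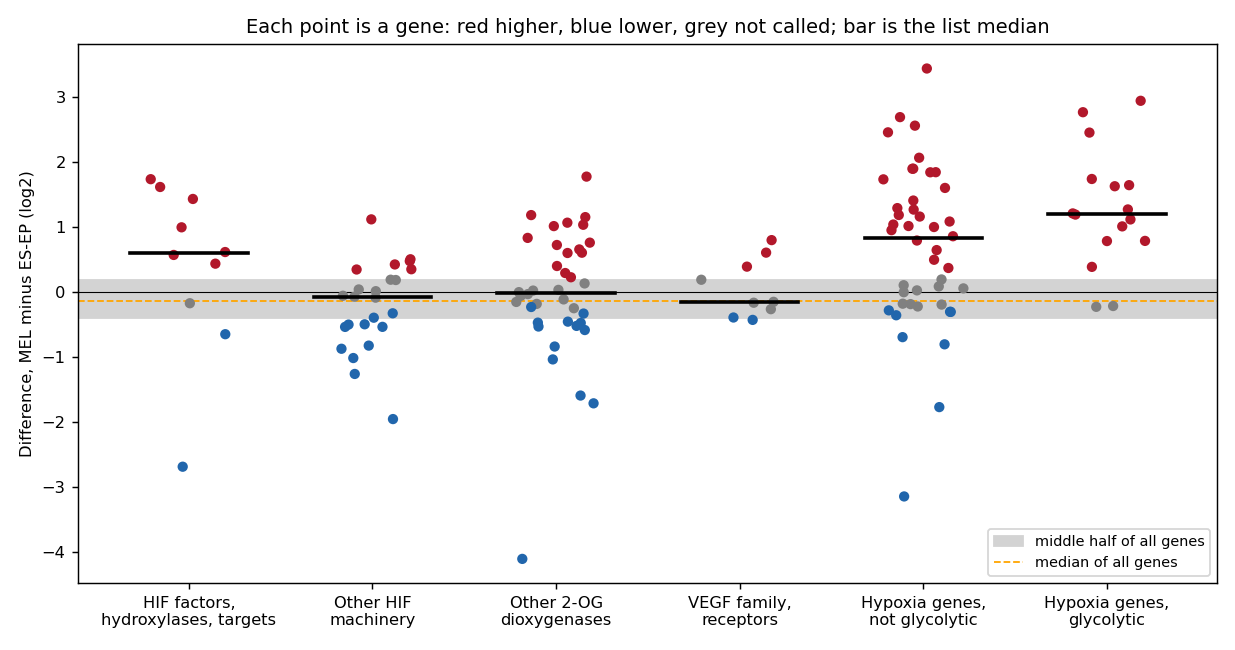
Differences of MEL minus ES-EP on the log2 scale for the 10 genes and for the 5 wider lists, a point per gene, with list medians as black bars. The grey band holds the middle of all genes, from -0.40 to 0.18, and the medians of both hypoxia lists, 0.83 and 1.20, lie above it while Egln3 and Plod2 lie far below.

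Duplicates correlated with r = 0.997 in MEL and 0.998 in ES-EP cells, against 0.948 to 0.949 between groups, over features that are not independent. Of 9 measured red cell markers 1 was higher and 8 were lower in MEL, and their summed level was 13.95 and 14.00 in MEL against 14.87 and 14.89 in ES-EP cells (log2 of the summed linear values). Endothelial cells are a known source of Epas1, and the summed level of their 10 markers was 9.82 and 9.77 in MEL against 9.57 and 9.58 in ES-EP cells, with 6 of the 10 under the median feature on every array. Megakaryocyte markers summed to 10.04 and 9.96 in MEL against 8.03 and 8.21 in ES-EP cells, over 4 genes. Mast cell markers summed to 7.57 and 7.49 in MEL against 8.78 and 8.78 in ES-EP cells, over 6 genes. Myeloid markers, over 9 genes, summed to 8.79 and 8.76 in MEL against 8.75 and 8.72 in ES-EP cells. Embryonic stem cell markers, over 6 genes, summed to 7.20 and 7.07 in MEL against 7.43 and 7.61 in ES-EP cells. A sum is ruled by its brightest genes. By calls, 2 endothelial markers were higher and 3 lower, and 1 myeloid marker was higher and 4 lower (limma). Megakaryocyte markers had 3 higher and 0 lower, mast cell markers 0 and 6, and embryonic stem cell markers 2 and 4. Of all genes 21.8% were higher and 36.9% lower. Under the median feature on every array were 7 of the 9 myeloid, 4 of the 6 mast cell and 5 of the 6 embryonic stem cell markers. The brightest gene of each list was Rhag for red cells, Egfl7 for endothelium, Cd68 for myeloid cells, Itga2b for megakaryocytes, Hdc for mast cells and Nanog for embryonic stem cells. The part of such cells in the differences above was not tested, and in bulk RNA fewer cells of a type and less RNA per cell cannot be told apart.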

How the data were processed

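The deposited values are log2 values, which the authors made by RMA in GeneSpring GX, per the labels. RMA corrects background, normalizes the arrays and summarises probes per feature. Its version, the genome build and the set of arrays that were normalized with one another are not given in the sources. That the scale is log2 was judged by the range of the values. Of 35557 features, 6613 with consecutive low numbers were treated as controls and 28944 were tested. Names came from the platform annotation, updated through Entrez identifiers with a RefSeq table of GRCm38.p6, in which 21698 features were found. There were 21789 features with 1 symbol, 1621 with several and 5534 with none. The brightest feature over the 4 arrays stood for a gene.

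The comparison of MEL with ES-EP used R 4.3.3 and limma 3.58.1 (lmFit, eBayes, Benjamini-Hochberg over all tested features), with 2 residual and 5.15 prior degrees of freedom. SEs come from the moderated fit. With 2 arrays per group precision is limited, and a p-value covers only the spread between duplicate cultures. The procedure was tested on simulated data with known changes. With spreads drawn from the prior fitted to these arrays it recovered nearly all changes of 2-fold or more and missed many smaller ones. With each feature's raw spread it missed more changes, and with moderated spreads it called more unchanged features than the threshold allows. Far fewer features were changed in the simulations than were called in these arrays, so the shares recovered and missed may differ here.

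Named genes were all members, the 3 largest called rises and falls of each of 5 wider lists, the brightest gene of each marker list, and the 3 genes nearest to the member with the largest difference. Of the 188 names on these lists and on 6 marker lists 175 had a feature of their own. The members, the lists and the tests were chosen with earlier results of these data known. No set test was run. The alternatives were 3 scalings, 2 priors, 3 choices of features, the mean of a gene's features, the replicate letter as a block, 4 fits without 1 array and a 1.5-fold criterion.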

Additional observations from a re-analysis of the deposited data

How the results depend on the processing

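The calls of 9 members and their directions held in each refit that could test them. With a 1.5-fold criterion 5 members were higher and 2 lower, without Egln2 and Hif1an, and the share of all genes at 1.5-fold was not computed. The count of lower members was 1 with features under the median left out, because Epas1 was then not tested. Leaving out 1 array gave 7 higher and 2 lower members each time, and 4 to 5 at 2-fold or more. The fifth was Vhl, which also passed 2-fold after centring and cyclic loess. With the replicate letter as a block 7 members were higher and 2 lower. The letters were not used as pairs, since the labels do not say that they mark a shared day and the deviations of same-lettered arrays correlated with r = 0.11.

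Among the wider lists, the lower genes outside glycolysis numbered 5 after quantile normalization, centring or inclusion of the control features, 4 after cyclic loess, 3 with dim features left out and 4 with a 1.5-fold criterion, against 8 as deposited, and 4 to 9 with 1 array left out. Glycolytic genes had 1 lower member after quantile normalization, 1 with an intensity trend in the prior and 2 with dim features left out, against 0. With a 1.5-fold criterion, for which no share of all genes was computed, the HIF machinery had 1 higher and 5 lower genes and the dioxygenases 6 lower. The VEGF family had 1 higher gene with dim features left out, and 0 lower ones there, after quantile normalization, after cyclic loess and with a 1.5-fold criterion, and 1 to 3 lower ones with 1 array left out. The cause of these shifts was not tested, apart from the fewer genes tested when dim ones are left out.

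The deposited values come with no measure of signal over background. What dimness does to the values of Epas1 and, in MEL, Egln3 was not tested.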
